A study of Mus musculus with 8 samples.

Results

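Hair keratins and keratin-associated proteins build the hair shaft, and their genes were followed here in sorted epithelial cells of mouse skin epidermis. The members are all genes of the deposited table whose symbol starts with Krtap, together with the hair and inner root sheath keratins Krt31 to Krt35, Krt39, Krt40, Krt71 to Krt73, Krt81 to Krt83, Krt86 and Krt87. This gave 63 of 32574 genes, of which 47 were Krtap genes and 16 were keratins. Krt36 and Krt84 belong to the same keratin families but were left out of the members by the rule, and Krt85 is not analysed here. The series asks what lies behind clonal expansion and tissue fluidity in wound repair, and compares control basal cells of the epidermis with those of skin under ablation. PolyA RNA was sequenced in 8 libraries, 2 in each of 4 groups: K14 control and Lrig1 control, both with genotype WT, and K14 ablation and Lrig1 ablation, both with genotype Basal lineage ablation. The sources used here do not give the alleles, the ablating agent, the age of the mice or the time of sampling, or whether K14 and Lrig1 name a driver or a sorted population. Nothing in the labels ties the libraries of a group to separate mice, and each p-value therefore reflects the spread of these libraries alone, which may be technical.

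Hair keratins are intermediate filament proteins. An acidic type I keratin pairs with a basic type II keratin, and the filaments are then embedded in a matrix of keratin-associated proteins that are rich in cysteine (the high sulfur and ultra-high sulfur classes) or in glycine and tyrosine. In the growing follicle Krt35 is among the keratins made early, in the hair matrix and the forming cortex. Krt31, Krt33a, Krt33b, Krt34, Krt81, Krt83 and Krt86 belong to the cortex, Krt32 and Krt82 to the cuticle, and Krt71 to Krt73 to the inner root sheath that surrounds the shaft. Resting follicles and the epidermis between follicles make little or no hair shaft keratin.

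The promoters are shown first, because the members share sequence features there that the choice by name did not use. RefSeq promoters on GRCm38.p6, from 250 bases before to 50 bases after the start, were matched to 52 of the 63 members. The letters TATAAA, the core of a TATA box, were in 82.7% of the member promoters on either strand, against 13.6% of 32851 promoters. Between 40 and 20 bases before the start, on the coding strand, they were in 31 members (59.6%) against 1.99% of all promoters. The letters CTTTGAAG, a form of the site for the Wnt effector LEF1 that is known from hair keratin promoters, were in 12 members (23.1%) against 1.66% of all promoters. In all, 5 motifs were searched on both strands, chosen after member promoters had been seen. The shorter CTTTGA, which lies within CTTTGAAG, was in 36.5% of members against 16.003%, CCAAT in 38.5% against 37.4% and CACACCC in 11.5% against 7.95%. Members of a cluster arose by duplication and share sequence, so these promoters are not independent of each other. The upstream sequences below are printed 5′ to 3′ up to the base before the start, with CTTTGAAG and TATAAA in capitals. The first 5 are 250 bases long and show both motifs, and the last 4 are 120 bases long and show glycine-tyrosine Krtap genes and inner root sheath keratins, with TATAAA and without CTTTGAAG in the window shown.
Krt31 (chr11:100050552-100050801, minus strand): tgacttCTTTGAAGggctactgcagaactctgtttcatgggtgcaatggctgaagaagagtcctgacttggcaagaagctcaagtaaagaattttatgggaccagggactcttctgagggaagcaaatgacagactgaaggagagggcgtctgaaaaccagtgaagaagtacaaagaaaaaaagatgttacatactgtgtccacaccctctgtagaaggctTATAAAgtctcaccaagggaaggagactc
Krt33b (chr11:100029869-100030118, minus strand): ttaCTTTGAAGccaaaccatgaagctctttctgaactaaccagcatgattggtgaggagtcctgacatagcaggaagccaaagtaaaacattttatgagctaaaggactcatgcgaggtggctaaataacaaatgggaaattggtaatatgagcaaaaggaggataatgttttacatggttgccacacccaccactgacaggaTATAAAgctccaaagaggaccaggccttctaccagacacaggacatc
Krt34 (chr11:100041555-100041804, minus strand): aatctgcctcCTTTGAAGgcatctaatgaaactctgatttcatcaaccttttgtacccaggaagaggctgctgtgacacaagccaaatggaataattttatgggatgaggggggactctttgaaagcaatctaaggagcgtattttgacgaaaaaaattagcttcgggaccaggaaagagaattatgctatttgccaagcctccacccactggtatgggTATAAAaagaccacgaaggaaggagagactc
Krt32 (chr11:100088270-100088519, minus strand): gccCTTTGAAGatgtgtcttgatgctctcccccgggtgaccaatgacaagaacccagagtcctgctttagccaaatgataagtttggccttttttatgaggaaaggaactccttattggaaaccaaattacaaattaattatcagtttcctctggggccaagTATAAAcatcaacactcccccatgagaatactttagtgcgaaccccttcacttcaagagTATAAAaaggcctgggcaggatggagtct
Krtap11-1 (chr16:89571184-89571433, minus strand): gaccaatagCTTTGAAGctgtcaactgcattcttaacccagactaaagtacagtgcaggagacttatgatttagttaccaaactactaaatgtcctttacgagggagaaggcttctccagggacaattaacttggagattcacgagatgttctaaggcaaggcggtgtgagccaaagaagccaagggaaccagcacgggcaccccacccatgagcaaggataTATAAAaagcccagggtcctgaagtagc
Krtap6-1 (chr16:89031579-89031698, plus strand): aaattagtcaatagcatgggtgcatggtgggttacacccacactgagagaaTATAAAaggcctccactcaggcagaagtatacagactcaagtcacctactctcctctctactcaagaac
Krtap8-1 (chr16:89487953-89488072, minus strand): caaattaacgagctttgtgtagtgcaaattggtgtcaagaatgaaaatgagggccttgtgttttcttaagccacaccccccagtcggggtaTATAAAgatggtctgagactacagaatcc
Krt71 (chr15:101743098-101743217, minus strand): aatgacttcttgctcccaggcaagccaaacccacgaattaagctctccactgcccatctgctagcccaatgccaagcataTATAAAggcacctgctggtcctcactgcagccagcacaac
Krt73 (chr15:101802361-101802480, minus strand): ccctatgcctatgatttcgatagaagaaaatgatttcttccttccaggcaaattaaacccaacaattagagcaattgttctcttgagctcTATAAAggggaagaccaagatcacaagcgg

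The CTTTGAAG match began 244 bases before the start in Krt31, 247 in Krt33b, 240 in Krt34 and 247 in Krt32, which are neighbours in the type I keratin cluster of chromosome 11. In Krtap11-1, on chromosome 16, it began 241 bases before the start. All 12 members with the match were among the 33 members with a promoter whose values in both Lrig1 control libraries lay above those of the other 6 libraries, and 0 of the other 19 members with a promoter held it. TATAAA was in 28 of the 33 and in 15 of the 19. These splits were made after the values had been seen, use no read floor and are a description, with no test. A match is not a shown binding site.

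Most of the members were at or near the limit of detection. All 63 had at least 1 read in some library, 48 had at least 3 reads in at least 1 library, and 15 never reached 3 reads. The 48 comprised all 16 keratins, 17 of 18 high sulfur, 6 of 12 ultra-high sulfur and 8 of 13 glycine-tyrosine Krtap genes, and 1 of 4 other Krtap genes. Only Krt32 and Krt73 had 3 or more reads in all 8 libraries. Members with at least 3 reads in both libraries of a group numbered 36 in Lrig1 control, 8 in Lrig1 ablation, 11 in K14 control and 5 in K14 ablation. Libraries held 6458636 to 11654135 recovered reads each, and 3 reads are worth a normalised read count of 2.12 to 4.23. The Lrig1 control libraries, in which the most members were detected, were the shallowest.

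Reads of the 63 members made up 179 per 1000000 reads in Lrig1 control 1 (95% exact binomial interval 169 to 188) and 387 per 1000000 in Lrig1 control 2 (372 to 403). The other 6 libraries held 7.21 to 26.6 per 1000000, so the groups did not overlap. Intervals and limits from read numbers cover counting error only, because amplified reads without molecular identifiers are not independent molecules. In a bulk sample, fewer cells that make hair keratins and less of their RNA per cell cannot be told apart. For 42 of the 63 members both Lrig1 control libraries lay above the other 6, and among all 32306 genes with a read this held for 10.8%. Both counts use normalised values without a read floor, and some of the 42 never reached 3 reads in a library. A single read is worth 1.16 and 1.41 in the Lrig1 control libraries and 0.708 to 1.07 in the others, so equal reads rank Lrig1 control higher. Listed at 0 in the other 6 libraries were 19 members, but several of these never reached 3 reads in Lrig1 control either. The share of all genes at 0 there was not computed, so this count is a description only.

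**Figure D1:**
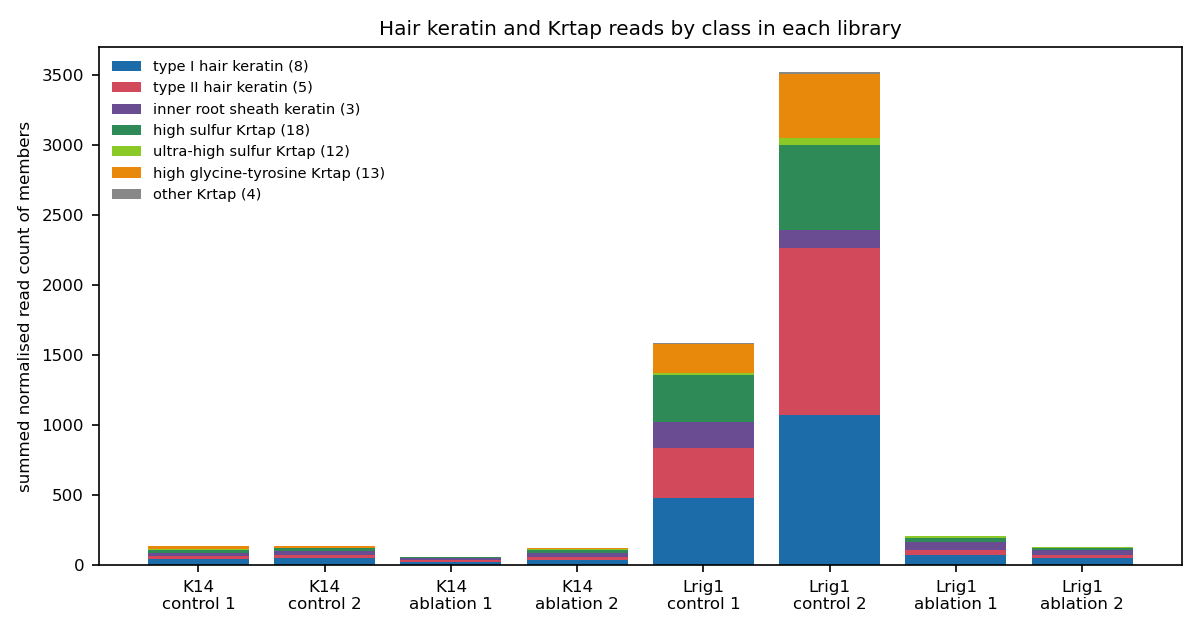
Summed normalised read count of the members (vertical axis) in each of the 8 libraries, stacked by class, with the number of members of each class in brackets. The Lrig1 control libraries reach 1584 and 3524, and the other 6 libraries lie between 59.4 and 209.

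Every class of hair keratin and Krtap genes had its highest sums in the Lrig1 control libraries. The 8 type I hair keratins summed to normalised read counts of 477 and 1070 in Lrig1 control. They summed to 71.0 and 53.3 in Lrig1 ablation, 44.7 and 50.2 in K14 control, and 24.8 and 38.6 in K14 ablation. Their partners, the 5 type II hair keratins, summed to 362 and 1195 in Lrig1 control and to 12.03 to 35.5 in the other 6 libraries. The high sulfur Krtap genes summed to 335 and 603 against 8.49 to 30.2, and the glycine-tyrosine Krtap genes to 206 and 454 against 0.708 to 21.3. The ultra-high sulfur class stayed near the detection limit, with 15.1 and 52.2 in Lrig1 control and 0.708 to 12.4 elsewhere. Krt71 to Krt73 summed to 180 and 130 in Lrig1 control, 55.0 and 38.2 in Lrig1 ablation, and 12.03 to 28.9 in the K14 libraries.

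**Figure D2:**
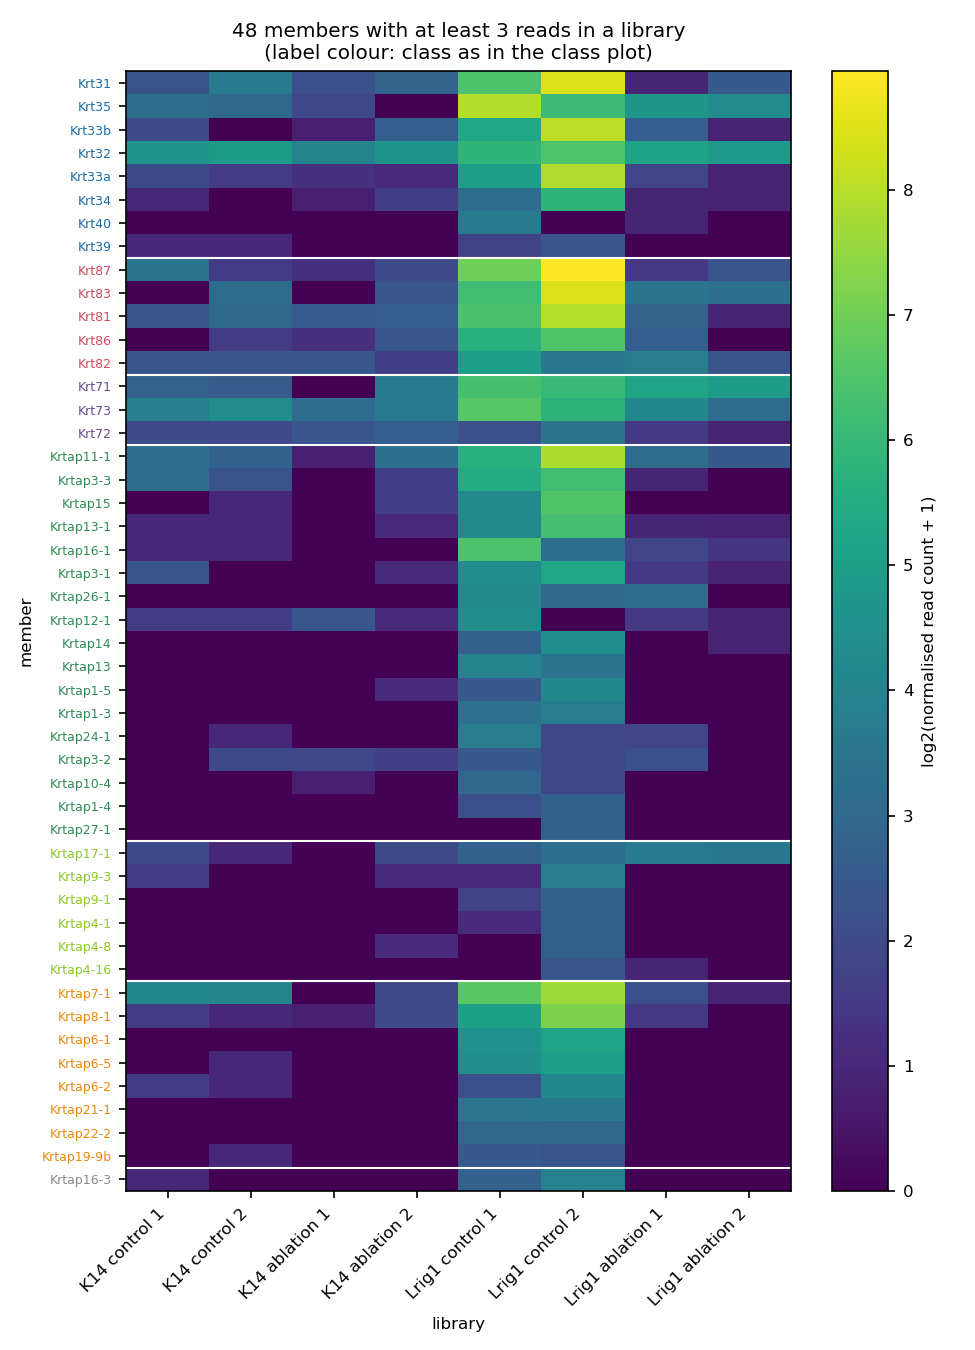
Log2(normalised read count + 1) of the 48 members with at least 3 reads in a library (rows, ordered by class and then by mean) in the 8 libraries (columns). The Lrig1 control columns are the brightest for most rows, with the ultra-high sulfur class faint throughout, while Krt32 and Krt73 also carry signal in all other columns.

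Lrig1 ablation was compared with Lrig1 control. The low-value filter (in 2 or more libraries, 1e-06 or more of the total) let 26 of the 63 members be tested. Of these, 18 failed it once the Lrig1 control libraries were set aside. They include Krt31, Krt33a, Krt33b, Krt81, Krt86, Krt87, Krtap3-3, Krtap6-1, Krtap8-1 and Krtap15. This favours members that are high in Lrig1 control, although Krt82 and Krtap26-1 also reached the level in Lrig1 ablation 1. The p-values of such members and the counts of tested members therefore describe these libraries and support nothing more. By limma with Benjamini-Hochberg adjustment over 18140 genes, 16 of the 26 were lower in ablation and 0 were higher, where 3.3% of all tested genes were lower. Without the filter 21 of the 63 were lower, against 1.49% of 32306 genes. Over all 63 members the median difference in log2(value + 1) was -2.44, against 0 over all genes with a read. With the 33 members that were at 0 in both Lrig1 ablation libraries placed at the bound their floor of 3 reads per library allows, the median was -1.46. Of the 63 members, 61 had a lower mean log2 value in ablation, 1 did not differ and 1, Krtap17-1, had a higher one.

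Krt87, a type II hair keratin, had normalised read counts of 126 and 492 in Lrig1 control, 1.77 and 3.98 in Lrig1 ablation, 10.2 and 1.97 in K14 control, and 1.42 and 3.22 in K14 ablation. The Lrig1 control values stood above all others, and the difference between Lrig1 ablation and control was -6.07 ± 0.84 (log2(value + 1), SE; limma adjusted p = 0.0113). Krt81, a type II keratin of the cortex, read 82.7 and 244 in Lrig1 control, 6.21 and 0.796 in Lrig1 ablation, and 4.06 to 6.89 in the K14 libraries (difference -5.31 ± 0.76, limma adjusted p = 0.0126). Krt86, its close relative, read 50.1 and 90.2 against 5.33 and 0 (limma adjusted p = 0.0378). Krt83, also of the cortex, read 72.2 and 358 in Lrig1 control, against 9.76 and 8.76 in Lrig1 ablation, without overlap, but the test did not pass (-3.98 ± 1.21, limma adjusted p = 0.114). Of the 50-base stretches of the transcript, 43.3% in Krt86, 37.7% in Krt81 and 36.9% in Krt87 also occurred in another gene, so their reads may have been divided or dropped by the counting. The same limit holds for Krt31 (28.1%), Krtap6-1 (28.3%), Krt33b (24.2%) and Krt83 (22.1%). Krt82, the type II keratin of the cuticle with no shared stretch, read 31.4 and 11.3 in Lrig1 control, against 12.4 and 3.98 in Lrig1 ablation, and these groups overlapped (limma adjusted p = 0.353).

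Among type I keratins, Krt31 of the cortex read 86.1 and 355 in Lrig1 control, 0.887 and 4.78 in Lrig1 ablation, 4.06 and 11.8 in K14 control, and 3.54 and 6.43 in K14 ablation. It fell by 5.74 ± 0.84 on the log2(value + 1) scale between Lrig1 control and ablation (limma adjusted p = 0.0131). Krt33a read 31.4 and 234 in Lrig1 control against 2.66 and 0.796 in Lrig1 ablation (-5.09 ± 0.90, limma adjusted p = 0.0237). Krt33b, at 39.6 and 264 against 5.33 and 0.796, missed the threshold (limma adjusted p = 0.0561). Krt31 and Krt33b hold CTTTGAAG upstream (sequences above), as does Krt32, the cuticle keratin that was detected in every library. Krt32 read 57.04 and 88.8 in Lrig1 control, 34.6 and 27.1 in Lrig1 ablation, 24.4 and 28.6 in K14 control, and 15.6 and 23.6 in K14 ablation. The Lrig1 control values were the highest, but the difference of -1.19 ± 0.36 did not pass (limma adjusted p = 0.113). Krt32 overlaps the antisense gene Gm11571 in part, and the sources used here do not name the strand setting of the counting.

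Krt35, the early hair keratin, was the type I member with the highest value in Lrig1 ablation apart from Krt32. It read 241 and 69.1 in Lrig1 control, 25.7 and 19.1 in Lrig1 ablation, 8.12 and 6.89 in K14 control, and 2.83 and 0 in K14 ablation. The 4 groups did not overlap, yet Lrig1 ablation against control gave -2.49 ± 0.76 (limma adjusted p = 0.114).

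The inner root sheath keratins were less uniform. Krt73 read 96.6 and 53.6 in Lrig1 control, 16.9 and 7.96 in Lrig1 ablation, 13.2 and 18.7 in K14 control, and 7.78 and 11.8 in K14 ablation. It fell between Lrig1 control and ablation (-2.53 ± 0.49, limma adjusted p = 0.0326), to values that overlapped those of the K14 libraries. Krt71 read 80.3 and 66.3 in Lrig1 control, 36.4 and 29.5 in Lrig1 ablation, 6.09 and 4.92 in K14 control, and 0 and 11.8 in K14 ablation. Its Lrig1 ablation values stayed above all 4 K14 libraries, and its difference from Lrig1 control did not pass (-1.13 ± 0.99, limma adjusted p = 0.578). Krt72 was not tested and ranged from 0.796 to 9.87 over the 8 libraries.

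Of the glycine-tyrosine Krtap genes, Krtap7-1 read 99.0 and 197 in Lrig1 control, 3.55 and 0.796 in Lrig1 ablation, 16.2 and 15.8 in K14 control, and 0 and 3.22 in K14 ablation. It fell by 5.62 ± 0.77 (log2(value + 1)) between Lrig1 control and ablation (limma adjusted p = 0.0113), and no 50-base stretch of it is shared with another gene. Krtap8-1 read 32.6 and 142 in Lrig1 control, against 1.77 and 0 in Lrig1 ablation (-5.38 ± 0.89, limma adjusted p = 0.0187). Krtap6-1 read 23.3 and 36.7 in Lrig1 control and was listed at 0 in the other 6 libraries. Its mean in Lrig1 control was 11.9-fold the floor of 3 reads per library in Lrig1 ablation and 9.99-fold that in K14 control. These are lower bounds on the differences. The limma tests used log2(value + 1) with the listed 0 values, not these bounds (limma adjusted p = 0.0113 and 0.00633).

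Among high sulfur Krtap genes, Krtap3-3 read 44.2 and 71.9 in Lrig1 control, 0.887 and 0 in Lrig1 ablation, and 0 to 8.12 in the K14 libraries (difference in Lrig1 -5.39 ± 0.74, limma adjusted p = 0.0113), but 41.3% of its 50-base stretches are shared, chiefly with Krtap3-2. Krtap15 read 17.5 and 91.6 in Lrig1 control and 0 in both Lrig1 ablation libraries, at least 21.6-fold lower in ablation against the floor of 3 reads per library. The test of its log2(value + 1) values, not of this bound, gave a limma adjusted p = 0.0245. Krtap15 overlaps the lincRNA 4930553J12Rik in part, on the same strand. Krtap11-1, whose upstream sequence is shown above, read 48.9 and 228 in Lrig1 control, 7.99 and 4.78 in Lrig1 ablation, and 0.708 to 8.58 in the K14 libraries. The Lrig1 control values did not overlap any other, and the test missed the threshold (-3.89 ± 0.93, limma adjusted p = 0.0591).

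Krtap17-1, of the ultra-high sulfur class, was the only member with higher values after Lrig1 ablation: 11.5 and 11.1, against 5.82 and 8.46 in Lrig1 control, 3.05 and 0.985 in K14 control, and 0 and 3.22 in K14 ablation. The difference was within the error (0.62 ± 0.78, limma adjusted p = 0.715). Krtap9-3 and Krtap9-1, of the same class, reached 12.7 and 5.64 in Lrig1 control 2 and were listed at 0 in both Lrig1 ablation libraries. Krtap16-3 reached 5.82 and 14.1 in Lrig1 control, while Krtap28-10 and Krtap29-1 never had 3 reads.

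**Figure D3:**
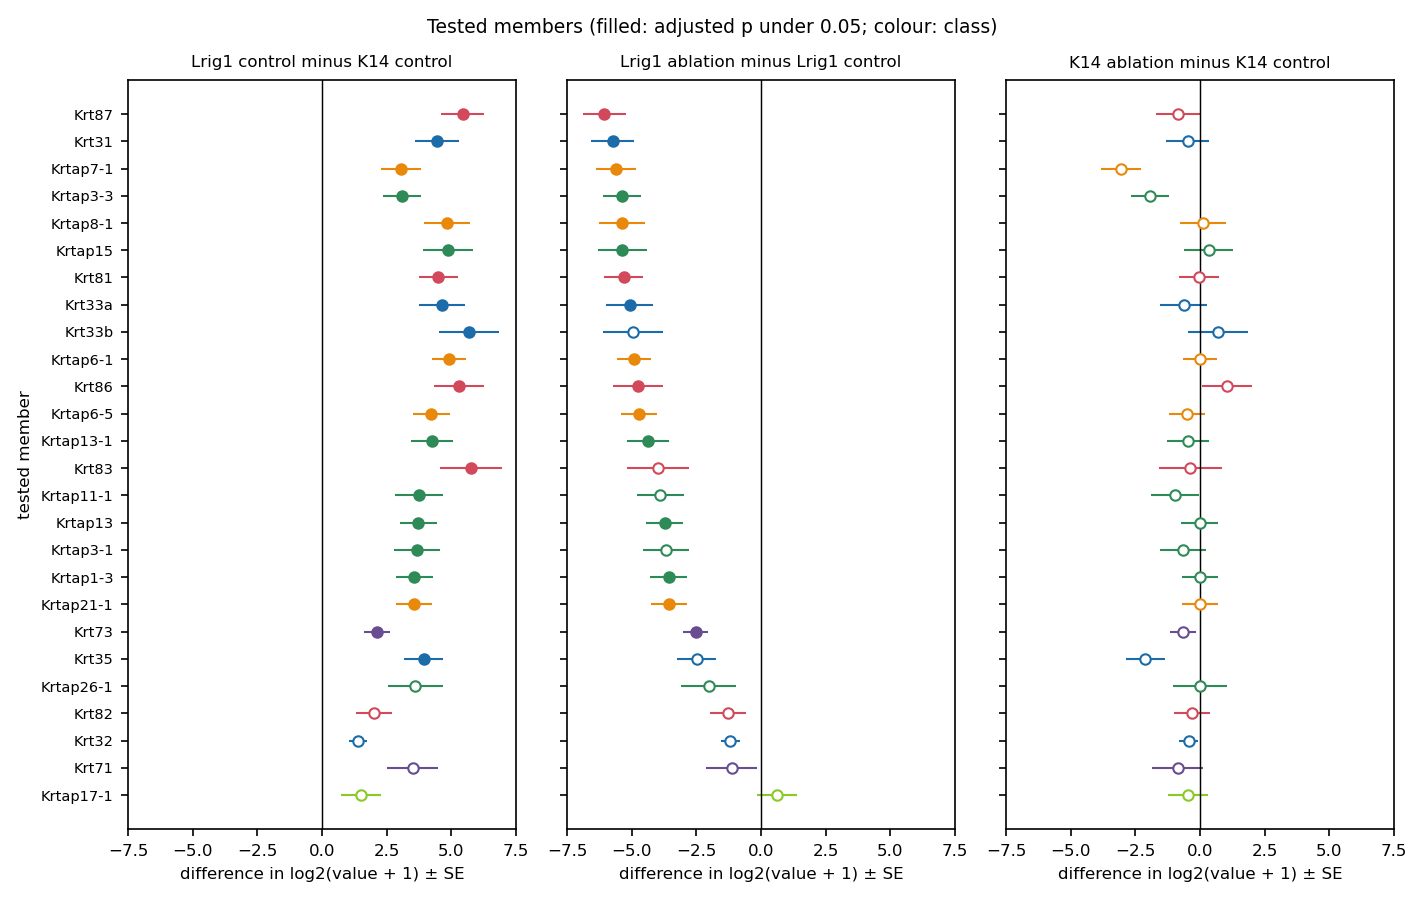
Difference in log2(value + 1) with its standard error (horizontal axis) for the 26 tested members (rows) in 3 comparisons; filled points have a limma adjusted p under 0.05. In the Lrig1 ablation comparison 16 points are filled, in the comparison of the controls 21, and in the K14 ablation comparison 0.

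The controls themselves differed. Lrig1 control against K14 control gave 21 of 26 tested members higher and 0 lower by limma with Benjamini-Hochberg adjustment, where 6.52% of all tested genes were higher. Without the filter 24 of 63 were higher, against 3.14%. This comparison shares the Lrig1 control libraries with the one above and is not independent of it. Of the 26, 18 would not have been tested without those libraries, Krt87 and Krt33b among them. Their p-values and the count therefore describe these libraries and support nothing more. Over all 63 members the median difference in log2(value + 1) was 2.23, and 1.85 with members at 0 in K14 control at their bound. Krt87 was higher by 5.44 ± 0.84 (limma adjusted p = 0.00931), Krt83 by 5.77 ± 1.21 (limma adjusted p = 0.0260), Krt33b by 5.69 ± 1.16 (limma adjusted p = 0.0235) and Krt35 by 3.94 ± 0.76 (limma adjusted p = 0.0189). Krt32 missed the threshold narrowly (1.40 ± 0.36, limma adjusted p = 0.0509), as did Krt71 (limma adjusted p = 0.0679).

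Calls were lost over the whole table when a control library was left out. With either Lrig1 control library absent, 0 members were called in both comparisons, and 11 or 12 members then passed the filter. In these fits 0.0279% of all tested genes were lower in Lrig1 ablation, and 0.0112% (without Lrig1 control 1) and 0.00559% (without Lrig1 control 2) were higher in Lrig1 control than in K14 control. With either K14 control library left out, the count for Lrig1 ablation went from 16 to 7 (0.956% of all tested genes lower without K14 control 1 and 0.949% without K14 control 2). That for the controls went from 21 to 1 (0.484% higher) and to 0 (0.511% higher). Groups of 2 allow no exact permutation p below 0.333.

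Between K14 ablation and K14 control 0 of 26 tested members passed by limma, where limma called 0.187% of all tested genes. An unadjusted p under 0.05 was found for 3 members and for 12.8% of all tested genes. edgeR also called 0 members (0.176% of all genes) and DESeq2 called 1 (1.55%). The smallest p belonged to Krtap7-1, with 16.2 and 15.8 in K14 control against 0 and 3.22 in K14 ablation (-3.05 ± 0.77, limma adjusted p = 0.195). Krtap7-1 was also the DESeq2 call (adjusted p = 0.0348). With 11 of the 63 members at 3 or more reads in both K14 control libraries, a fall of the other members was not detectable at this depth.

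The difference between the ablation effects of the Lrig1 and K14 libraries was tested directly. By limma 0 members passed (0.198% of all tested genes did), with 18 of 26 at an unadjusted p under 0.05, where 15% of all tested genes were. Of the 26, 18 would not have entered the test without the Lrig1 control libraries, so this count is a description of these libraries. The smallest adjusted p was 0.0801, for Krtap6-1 (difference of effects -4.92 ± 0.96). edgeR called 0 members (0.176% of all genes), and DESeq2 called 5 (1.74%): Krt31, Krt81, Krt86, Krt87 and Krtap8-1. After ablation, Lrig1 against K14 gave 0 members by limma (0.667% of all tested genes were called; the unadjusted p was under 0.05 for 3 members and for 16.4% of all tested genes). edgeR called 0 members too, and 0.744% of all genes. Only 7 members passed the filter with the libraries of these groups alone, so for the rest a difference may have been missed at this depth. Krt35 came nearest, at 25.7 and 19.1 against 2.83 and 0 (3.57 ± 0.76, limma adjusted p = 0.0912). DESeq2 called 4.07% of all genes and 2 members, Krt35 and Krt71, both higher in Lrig1 ablation (adjusted p = 0.00470 and 0.0481).

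The Lrig1 control libraries differed from each other in the levels of the members. Of 49 members with a read in both, 38 were higher in control 2 and 11 in control 1, while 52.9% of 22280 genes in the whole table were higher in control 2. A single read is worth 1.41 in control 2 and 1.16 in control 1, so equal reads rank control 2 higher. Some of the 38, at few reads, had equal or fewer reads in control 2. Cortex keratins were among those higher in control 2: the ratio of control 2 to control 1 was 7.44 for Krt33a, 6.66 for Krt33b, 4.12 for Krt31 and 4.96 for Krt83. The early keratin Krt35 went the other way, with a ratio of 0.287, as did Krt82 of the cuticle (0.359), Krt73 (0.554) and Krt71 (0.825) of the inner root sheath. Their layers were not uniform: Krt32, also of the cuticle, had a ratio of 1.56, and Krt72, also of the inner root sheath but at few reads, a ratio of 2.83. Krtap16-1 read 85.0 in control 1 and 8.46 in control 2, and Krtap26-1 read 17.5 and 7.05. With 1 library on each side there is no test, and these genes were chosen after their values were seen.

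**Figure D4:**
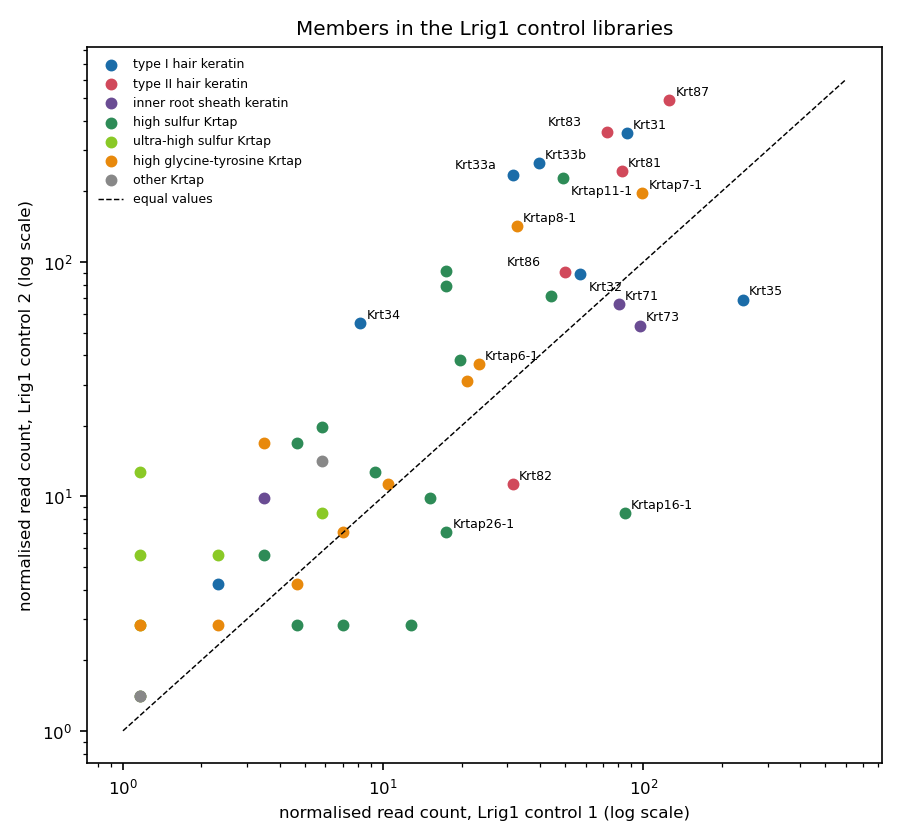
Normalised read count of the 49 members with a read in both Lrig1 control libraries, control 1 on the horizontal and control 2 on the vertical axis, both on a log scale, coloured by class, where points of low members can coincide. Of these, 38 lie above the dashed line of equal values, and Krt35, Krt82, Krt71, Krt73 and Krtap16-1 lie below it.

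Values per kilobase of exon allow for gene length when genes are compared, but not for reads lost through sequence shared with another gene. In Lrig1 control the mean normalised read count per kilobase was 239 for Krtap7-1, 152 for Krtap8-1, 140 for Krt31, 138 for Krtap11-1, 136 for Krt87 and 117 for Krt83. The control libraries differed more than these means did: Krt31 had 54.5 per kilobase in control 1 and 225 in control 2, and Krtap7-1 had 159 and 318. Within each control library Krtap7-1 was the highest of these 6 genes, Krtap8-1 came next and Krt83 was the lowest, while the order of Krt31, Krtap11-1 and Krt87 differed between the libraries. In control 1 alone Krt35, at 101 per kilobase, was above all of them except Krtap7-1. The share of sequence also found in another gene was 0% in Krtap7-1, Krtap8-1 and Krtap11-1 and 2.74% in Krt35. It was 28.1% in Krt31, 36.9% in Krt87 and 22.1% in Krt83, whose reads may have been divided or dropped by the counting. How far this shaped the order of the genes was not tested.

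By chromosome, 28 members lie in 582 kb of chromosome 11, 22 in 960 kb of chromosome 16 and 8 in 371 kb of chromosome 15 (GRCm38). With no read floor, both Lrig1 control libraries were above the other 6 for 17 of 28, 17 of 22 and 6 of 8 of them.

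Other genes of the hair follicle were taken from lists drawn up by knowledge of the follicle, but with earlier results of these data known. The counts of list genes therefore describe these libraries and are no independent support. Of the 13 tested genes of the hair shaft list, which holds no members, 9 were lower in Lrig1 ablation than in Lrig1 control and 0 higher (limma, adjusted p under 0.05). Higher in Lrig1 control than in K14 control were 7. Over all tested genes these shares were 3.3% and 6.52%, also for the lists below. The list includes Krt84 and Krt36, relatives of the members left out by the rule. Unlike the members, Krt84 and Krt36 were abundant in all groups, so the list does not mark the shaft alone. Krt84 read 31890 and 36926 in Lrig1 control, 2465 and 1693 in Lrig1 ablation, 12354 and 12681 in K14 control, and 4587 and 6095 in K14 ablation (Lrig1 difference -4.07 ± 0.23, limma adjusted p = 0.00100). Krt36 was likewise lower in Lrig1 ablation than in Lrig1 control (-4.26 ± 0.36, limma adjusted p = 0.00207). Prr9 fell by 3.82, Psors1c2 by 4.004 and Gprc5d, listed at 0 in both Lrig1 ablation libraries, fell from 9.31 and 63.4.

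Of 11 tested genes of the inner root sheath list, 5 were higher in Lrig1 control than in K14 control by limma. In Lrig1 ablation 2 of the 11 were lower than in Lrig1 control, and both also serve the cornifying epidermis. Cdsn, which encodes corneodesmosin, read 686 and 650 in Lrig1 control against 57.7 and 185 in Lrig1 ablation (limma adjusted p = 0.0232). Tgm1, a transglutaminase that cross-links the cornified envelope, read 582 and 591 against 39.05 and 149 (limma adjusted p = 0.0318). Krt25 read 118 and 74.7 in Lrig1 control, against 33.7 and 28.7 in Lrig1 ablation (limma adjusted p = 0.119). Krt27 (limma adjusted p = 0.0980) and Tchh, which encodes trichohyalin (limma adjusted p = 0.138), did not pass either. Of 5 tested companion layer genes 1 was lower, Krt17, at 12654 and 12357 in Lrig1 control against 7190 and 7359 in Lrig1 ablation (-0.78 ± 0.17, limma adjusted p = 0.0465), and Krt75 did not pass (limma adjusted p = 0.426). Higher in Lrig1 control than in K14 control was 1 of the 5.

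Of 26 tested regulators of the hair lineage, 3 were lower in Lrig1 ablation than in Lrig1 control, and 3 were higher in Lrig1 control than in K14 control. Hoxc13, a homeobox factor that activates hair keratin genes, read 534 and 485 in Lrig1 control, against 300 and 232 in Lrig1 ablation (-0.95 ± 0.17, limma adjusted p = 0.0229). Foxn1, the factor altered in nude mice, read 263 and 231 against 113 and 54.9 (-1.63 ± 0.31, limma adjusted p = 0.0303). In K14 control Hoxc13 read 481 and 463 and Foxn1 227 and 235, and neither passed the test between the controls (limma adjusted p = 0.748 and 0.901). Lef1 read 76.8 and 21.1 in Lrig1 control, against 27.5 and 65.3 in Lrig1 ablation, with overlap (limma adjusted p = 0.968). Msx2 did not pass (limma adjusted p = 0.440).

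Of 10 tested genes of the bulge and germ list, 0 were lower in Lrig1 ablation than in Lrig1 control, with a median difference of 0.55 on the log2(value + 1) scale. Higher in Lrig1 control than in K14 control were 5 of them (Krt15, Lhx2, Nfatc1, Sox9 and Tcf7l1), and 1, Lhx2, was higher in Lrig1 ablation than in K14 ablation.

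Markers of another cell type moved with the members. The 10 endothelial markers summed to 1092 and 1173 in Lrig1 control, 63.0 and 145 in Lrig1 ablation, and 87.6 to 116 in the K14 libraries. At 0 were 2 of the 10 in each K14 control library and 2 and 1 in the Lrig1 ablation libraries, and 0 in the rest. In Lrig1 ablation 7 of the 10 were lower than in Lrig1 control, and 8 of the 10 were higher in Lrig1 control than in K14 control (limma). The leukocyte list had 1 of 7 tested genes lower in Lrig1 ablation and 4 higher in Lrig1 control than in K14 control, the fibroblast list 0 and 3 of 5, the melanocyte list 0 and 1 of 6, and the sebaceous list 0 and 0 of 10. The basal keratinocyte list had 0 of 7 lower or higher in Lrig1 ablation and 1 higher in Lrig1 control than in K14 control (Krt15), with a median difference between the controls of -0.80. Its sum was 209178 and 90747 in Lrig1 ablation, 107216 and 116747 in Lrig1 control, and 177686 to 214964 in the K14 libraries. Krt14, a keratin of basal cells, took 0.887% and 0.387% of the total in Lrig1 ablation, on either side of Lrig1 control (0.471% and 0.486%). The part of any of these cell types in the members' values was not tested.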

How the data were processed

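The authors deposited 1 table of normalised signal for 32574 genes in 8 libraries. Per the labels' protocols, cells isolated by FACS were lysed, and the RNeasy Micro and Ovation Solo RNA-seq kits gave the RNA and the libraries. Per the submitters' processing notes, Trimmomatic, STAR, Picard and HTSeq 0.11.1 were used on GRCm38; the sources used here do not give settings, annotation or strand. Values rise in 1 fixed step per library, which fits reads scaled by a size factor: up to 100 reads, 100% were whole within 0.01 reads. The ablation columns are named in other words than the labels and were matched to the ablation groups as the only ones left, with 1.1 read as replicate 1.

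Tests used limma 3.58.1 (R 4.3.3) with a variance trend on log2(value + 1), in 1 fit of 4 group means over 8 libraries (4 residual and 4.13 prior degrees of freedom). This scale understates changes of low genes. Genes needed 1e-06 of the library total in 2 libraries (18140 genes), and the threshold was a Benjamini-Hochberg adjusted p of 0.05 over all of them. edgeR 4.0.16 and DESeq2 1.42.0 on the recovered reads, other pseudocounts, filters, scalings and sample sets were alternatives. Coordinates came from GENCODE M21, in which all 63 members were found. Shared sequence was measured as the share of 50-base stretches of a gene's transcripts found in transcripts of another gene. Promoters came from RefSeq (GRCm38.p6). Same-numbered libraries of different groups did not deviate together (correlations -0.049 to 0.084), so the numbers were not taken as pairs.

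The members and lists were chosen with earlier results of these data known, and Krtap classes come from general knowledge. Krtap16-3 was put among other Krtap genes after its values were seen. Members named are the 3 highest of each class, the 10 largest changes past the threshold in each comparison and direction, and those with 3 reads in all 8 libraries. Context genes named are Hoxc13, Foxn1, Lef1, Msx2, Krt25, Krt27, Tchh and Krt75, with up to 5 others per comparison. Krt34, Krt82, Krtap16-1, Krtap26-1, Krtap3-2, Krtap6-5, Tgm1, Krt14, Krt15, Nfatc1, Sox9 and Tcf7l1 were named outside this rule, after their values were seen.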

Additional observations from a re-analysis of the deposited data

How the results depend on the processing

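Groups of 2 libraries and few reads per member limit every call. For Lrig1 ablation against control and for the controls, other fits may call more or fewer genes over the whole table. The share of all genes was given above only for the main fit, the unfiltered fit and the fits without a control library. The other counts of members for these comparisons have no such share beside them. In the other comparisons, members were called with 1 library left out only in fits that called more of the whole table than the main fit. For K14 ablation the share was 1.46% without K14 ablation 2, against 0.187% in the main fit. After ablation it was 1.88% without K14 ablation 1, 1.63% without K14 ablation 2 and 22.5% without Lrig1 ablation 1, against 0.667%. For the difference of effects it was 11.2% without Lrig1 ablation 1 and 3.11% without Lrig1 ablation 2, against 0.198%. Counts of members called were 16 for Lrig1 ablation against control and 21 for the controls. In the first, fitting only the libraries of both groups gave 6, leaving out 1 library at a time gave 0 to 18, edgeR 14 and DESeq2 13. For the controls leaving out 1 library gave 0 to 23, edgeR 18 and DESeq2 17. In K14 ablation the count of 0 became 0 to 1 with 1 library left out (Krt71 without K14 ablation 2) and 1 by DESeq2. For Lrig1 against K14 after ablation it became 0 to 1 with 1 library left out and 2 by DESeq2. For the difference of the ablation effects it became 0 to 5 with 1 library left out, with 5 when Lrig1 ablation 1 was absent (Krt81, Krt86, Krtap6-1, Krtap6-5 and Krtap8-1), and 5 by DESeq2.

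With the replicate number as a block, the counts were 12 for Lrig1 ablation, 0 for K14 ablation, 17 for the controls, 1 after ablation (Krt35) and 0 for the difference of effects. The block gave 0 hair follicle list genes in the last, against 2 without it.

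In the main fit 65 hair follicle list genes were tested. Of these, 15 were called in Lrig1 ablation (4 with both groups' libraries only, 1 to 25 with 1 library left out). In K14 ablation 1 was called (0, then 0 to 12, with DESeq2 6 at 1.55% of all genes). Between the controls it was 21 (44, in a fit that called 42.9% of all tested genes, then 0 to 36). After ablation it was 2 (0, then 0 to 37, with DESeq2 21 at 4.07%). In the difference of effects it was 2 (1 without the filter, then 0 to 22, with DESeq2 8 at 1.74%). The highest counts with 1 library left out came without an Lrig1 ablation library, where calls rose over the whole table. These fits called 13.9% of all tested genes in Lrig1 ablation, 4.17% in K14 ablation and 19.7% or 19.9% between the controls. They called 22.5% after ablation and 11.2% in the difference of effects.

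Over all named genes, comparisons and alternatives, 71 of 2935 values changed sign, and 0 of these were called in either fit. Among reported values, Lef1 in Lrig1 ablation was 0.07 by limma, -0.050 by edgeR, -0.064 by DESeq2 and -0.84 to 0.97 with 1 library left out. Msx2 ranged from -1.68 to 0.10 there, and Krt71 in K14 ablation from -2.70 to 0.98. The cause of these changes was not tested. Scaling by TMM moved libraries by at most 0.079 on the log2 scale.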
